A study of Mus musculus with 4 samples.

Results

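Occupancy of MED1 at 9 mouse genes of the type I interferon system was examined in RAW 264.7 cells. The genes were Ifnb1, which encodes the cytokine interferon beta, 6 genes of antiviral sensing and defence (Rsad2, Cmpk2, Isg15, Usp18, Ifih1 and Zbp1), and the receptor genes Ifnar1 and Ifnar2. They were picked by name from 21887 protein-coding genes, with earlier results of these data known. MED1 is a subunit of Mediator, the complex that connects transcription factors bound to DNA with RNA polymerase II. RAW 264.7 is a macrophage-like line from a mouse tumour induced by Abelson leukaemia virus. MED1 chromatin immunoprecipitation with sequencing (ChIP-seq) was made from untreated cells (2 libraries) and from cells given lipopolysaccharide (LPS), a bacterial membrane component, for 2 h (2 libraries). The sample labels give the LPS dose as 10 ng/mL and the treatment protocol as 100 ng/mL.

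A single list of intervals was deposited for the 4 libraries, with positions and no heights. No interval is tied to a library, so untreated and LPS-treated cells could not be compared, and depth and the spread between libraries are unknown. Abutting intervals were joined into 22570 regions of median width 1948 bp, of which 60.4% held 3 intervals and 35.3% held 1. What the borders between abutting intervals stand for is not given in the sources used here. Regions overlapped 10 of 10 macrophage marker genes and 1 of 25 marker genes of neurons, hepatocytes, T cells, B cells and fibroblasts, against 50.6% of all protein-coding genes. The contrast was smaller for a region over the gene or within 50 kb: 10 of 10 and 11 of 25, against 70.6%. The values below describe positions in this list, and none of them was tested.

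Macrophages make interferon beta when Toll-like receptor 4, the LPS receptor, signals through the adaptor TRIF to the transcription factor IRF3, which acts with NF-kB at Ifnb1. Secreted interferon beta binds IFNAR1 and IFNAR2 on the same and neighbouring cells. Signalling through the receptor-bound kinases JAK1 and TYK2 then brings transcription factors to interferon-stimulated response elements in antiviral genes. LPS can thereby switch on antiviral genes in macrophages without a virus.

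A MED1 region completely covered the sequence before the transcript start at all 7 genes with a RefSeq promoter entry. How many of all promoter windows were covered in this way was not computed. By a different measure, 42.8% of protein-coding genes with a known start had that start inside a region. Of the 7 genes, 4 are shown, 3 that hold interferon-response or kappa B motifs and 1 receptor gene. They were chosen with their motifs known. The other 3, at Ifih1, Cmpk2 and Ifnar2, are given by their values. The sequences are the 250 bases before the RefSeq transcript start, 5′ to 3′ on the gene's strand, from GRCm38.p6, the assembly also called mm10. Capitals mark matches on either strand to GAAANNGAA (core of the interferon-stimulated response element), AANNGAAA (core bound by IRF proteins) or GGANNTTCC (core of the kappa B site bound by NF-kB), which can overlap each other.
Ifnb1, chr4:88522795-88523044, minus strand: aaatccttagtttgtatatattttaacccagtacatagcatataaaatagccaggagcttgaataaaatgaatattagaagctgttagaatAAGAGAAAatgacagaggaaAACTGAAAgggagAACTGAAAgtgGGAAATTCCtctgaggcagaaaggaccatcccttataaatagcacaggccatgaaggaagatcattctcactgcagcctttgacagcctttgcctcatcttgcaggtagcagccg
Isg15, chr4:156200819-156201068, minus strand: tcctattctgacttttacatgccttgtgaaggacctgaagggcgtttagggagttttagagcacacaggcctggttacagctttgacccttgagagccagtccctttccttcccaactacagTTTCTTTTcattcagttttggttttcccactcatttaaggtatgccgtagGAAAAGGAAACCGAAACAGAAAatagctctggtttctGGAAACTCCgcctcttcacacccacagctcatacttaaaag
Rsad2, chr12:26456453-26456702, minus strand: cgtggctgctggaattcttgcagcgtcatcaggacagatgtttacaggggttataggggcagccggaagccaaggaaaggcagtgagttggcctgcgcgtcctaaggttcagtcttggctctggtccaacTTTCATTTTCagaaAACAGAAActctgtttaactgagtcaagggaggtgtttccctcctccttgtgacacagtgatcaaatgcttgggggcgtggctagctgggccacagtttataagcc
Ifnar1, chr16:91484965-91485214, plus strand: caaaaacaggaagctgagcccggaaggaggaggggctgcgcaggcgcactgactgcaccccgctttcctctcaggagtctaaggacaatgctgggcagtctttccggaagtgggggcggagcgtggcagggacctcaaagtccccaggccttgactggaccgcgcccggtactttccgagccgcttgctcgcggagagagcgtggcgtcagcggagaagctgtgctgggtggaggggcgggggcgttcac

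The Ifnb1 sequence held 3 matches to AANNGAAA, beginning 159, 139 and 126 bases before the start, and a kappa B core beginning 115 bases before it. Isg15 held 3 overlapping matches to GAAANNGAA, beginning 78, 72 and 66 bases before the start. Rsad2 held 1 match to that motif on the other strand, 119 bases before the start. Ifih1, not shown, held a match to it on the other strand, 112 bases before the start, and another after the start, given below. The Ifnar1 sequence held no match to these 3 motifs, and neither did those of the inducible gene Cmpk2 and of Ifnar2. Ifnar1 held GC boxes (GGGCGG), and 65.6% of its bases were G or C, against 39.6% at Ifnb1 and a median of 52.4% over all 32851 RefSeq promoter windows. The other shares were 44.8% at Isg15, 50.0% at Ifih1, 51.6% at Rsad2, 54.0% at Ifnar2 and 54.8% at Cmpk2. CG dinucleotides numbered 19 at Ifnar1, 11 at Ifnar2 and at Ifih1, 6 at Rsad2 and at Cmpk2, 4 at Isg15 and 1 at Ifnb1, against a median of 6. Neither measure separated the receptor genes from the rest, since Cmpk2 lay above Ifnar2 in G and C and Ifih1 equalled it in CG dinucleotides.

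RefSeq windows of 300 bases, from 250 before to 50 after the start, were matched for 7 of the 9 genes. GAAANNGAA was present in 3 of the 7 (Isg15, Rsad2 and Ifih1) and in 8.56% of all windows. AANNGAAA, a motif added after the sequences had been seen, was present in those 3 and Ifnb1 and in 23.9% of all windows. GGANNTTCC was present at Ifnb1 and Isg15 (4.26% of all windows). TATAAA was present at Ifnb1 and Rsad2 (13.6%), TGANTCA, the AP-1 site, at Rsad2 (7.81%), and TTCNNNGAA, the gamma-activated sequence, at Ifnar1 and Ifnar2 (8.3%). GAGGAA, the core bound by the macrophage factor PU.1, was present at Ifnb1, Cmpk2, Ifih1 and Ifnar1 (28.3%), and GGGCGG at Ifnar1 and Ifnar2 (35.7%). CCAAT was present in none of the 7 and in 37.4% of all windows. In Ifih1 a match to GAAANNGAA lay after the start, in this stretch of 24 bases that begins at position 27 counted from the start as 1: agAATCGAAACAGAAAccgatctg. A match of letters is a description of the sequence, not a measured binding site.

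All 9 genes were overlapped by a MED1 region, as were 50.6% of protein-coding genes. A region overlapped the gene or had its midpoint within 50 kb of an end at all 9 genes, against 70.6% of genes, and the midpoint lay within 1 kb of an end at 6 of them, against 36.8%. Of the 7 genes with a RefSeq transcript start, all 7 had it inside a region, against 42.8% of genes. These include Rsad2, Cmpk2 and Ifih1, which were not among the 6 because their region midpoints lay 3.69, 2.28 and 1.39 kb from the start. The genes had 46 distinct regions near them, between 209 and 10909 bp wide. The median was 6 regions per gene, against 2 over all genes, and ran from 1 at Zbp1 to 14 at Ifnar1. The midpoints nearest to the 50 kb limit on each side were both in the receptor locus. They lay 46.9 kb from Ifnar1 (counted) and 50.3 kb from Ifnar2 (not counted). The nearest midpoint not counted for Ifnar1 lay at 51.3 kb. The locus maps show the regions of each gene.

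**Figure D1:**
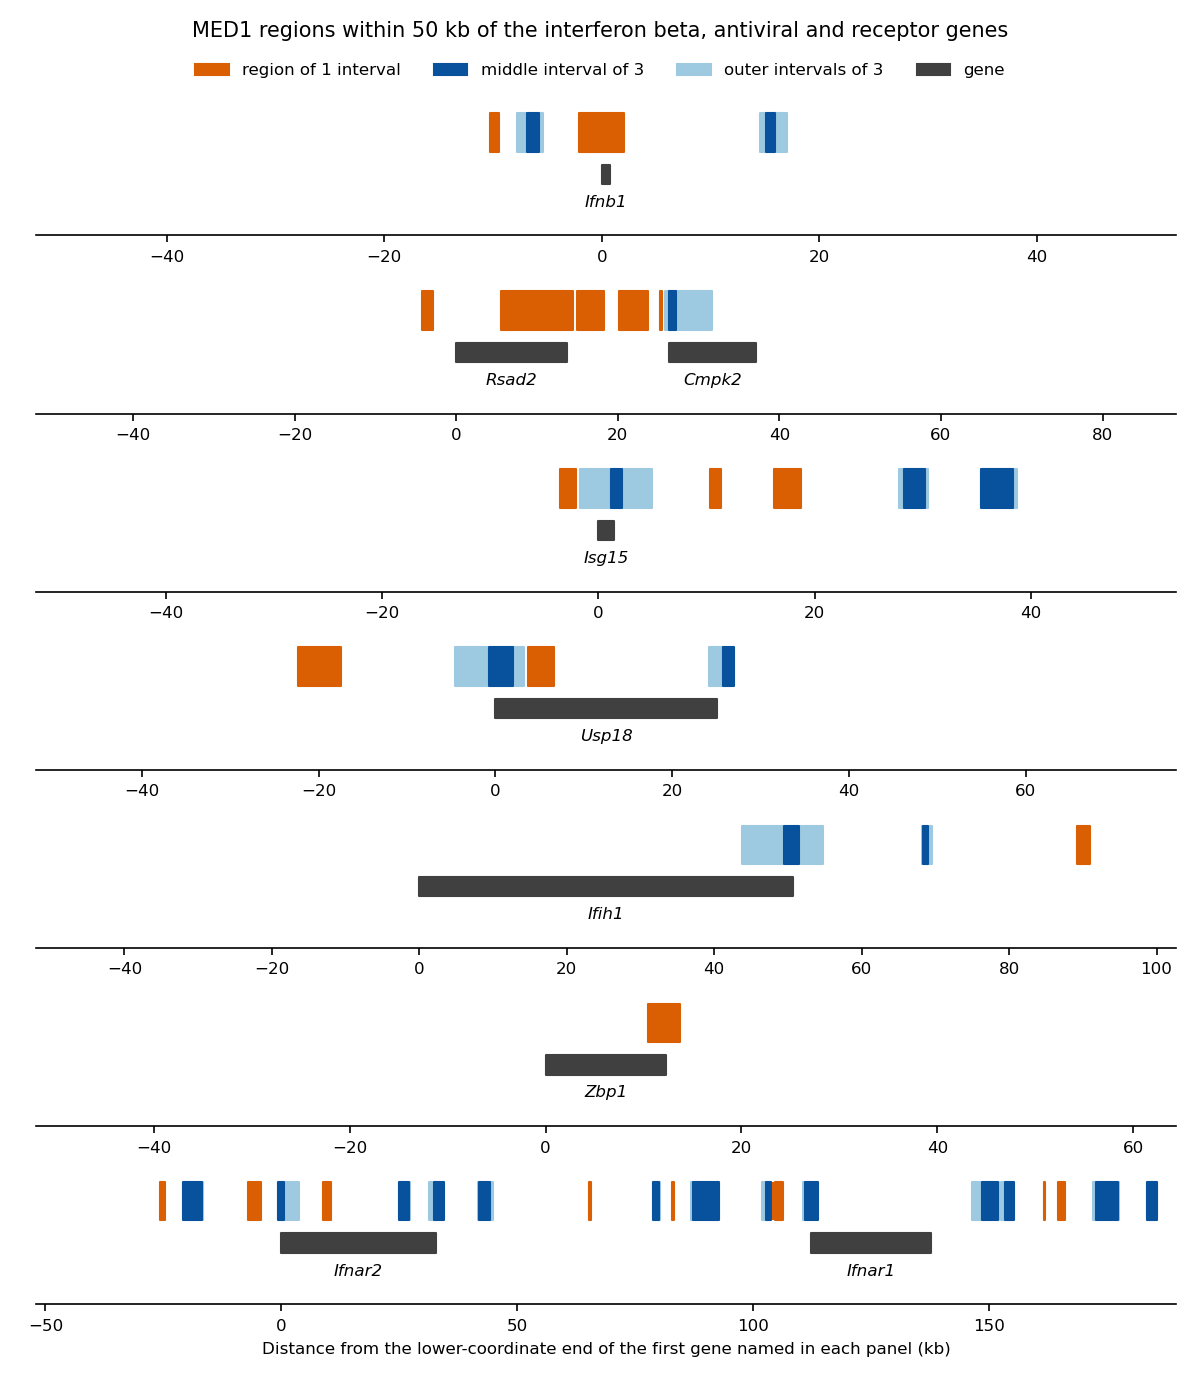
MED1 regions counted for the 9 genes, drawn against distance in kb from the lower-coordinate end of the first gene in each panel. Orange bars are regions of 1 interval, dark blue and light blue bars are the middle and outer intervals of regions of 3, and grey bars are genes. Orange covers Ifnb1, a large part of Rsad2 and an end of Zbp1, and light blue is broad at Isg15, Ifih1, Cmpk2 and Usp18. In the receptor locus, dark blue takes most of the width in all but 1 of the 13 regions of 3 intervals, and 9 further regions are orange.

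Ifnb1 (chromosome 4, 88522025 to 88522794), an intronless gene, lay entirely inside a region of 4089 bp made of a single interval (88519930 to 88524018). The region reached 1.22 kb before the transcript start and 2.86 kb after it, so that it held the whole promoter sequence shown above. Only 3.92% of all single-interval regions were as wide or wider. A region of 2342 bp and one of 790 bp lay 5.45 and 9.44 kb beyond the 3′ end of the gene, and one of 2479 bp lay 13.7 kb upstream. These 4 regions covered 9.7 kb of the window, a coverage reached by 27.6% of genes. Their number was reached by 34.8% of genes, so neither value places Ifnb1 far from other genes.

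The regions at Ifnb1 did not extend over its relatives. At higher coordinates lie 16 other type I interferon genes, among them the interferon alpha genes, over 323 kb (88557673 to 88880201). These genes encode cytokines that use the same receptor as interferon beta. None of the 16 was overlapped by a region, while 50.6% of all protein-coding genes were. The stretch held 2 regions, of 810 and 1320 bp, and the closest to any gene was the narrower one, 1.92 kb from Ifna13. Of the 16 genes, 8 had a region within 50 kb and 8 had none, while 70.6% of all protein-coding genes had one. The 16 genes lie close together and can share a region, so their counts are not independent. Ifna15 reached 4 because its window takes in the regions at Ifnb1. The interferon gamma gene Ifng had no region within 50 kb. The interferon lambda genes Ifnl2 and Ifnl3 had 1 each, which did not overlap them. The interferon alpha genes are similar in sequence, and how reads that match several places were handled is not given in the sources used here.

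**Figure D2:**
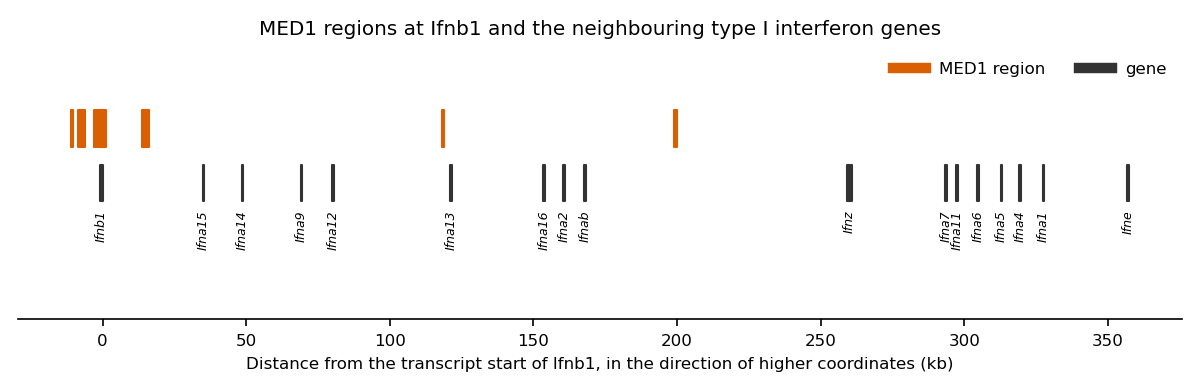
MED1 regions (orange) and type I interferon genes (dark grey) against distance in kb from the transcript start of Ifnb1, towards higher coordinates; other genes are not drawn. Of the 6 regions drawn, 4 lie within about 16 kb of Ifnb1 and none overlaps any of the 16 other genes.

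Ifih1 and Zbp1 encode sensors of nucleic acids in the cytosol. MDA5, the product of Ifih1, binds long double-stranded RNA and signals towards Ifnb1, and ZBP1 binds Z-form nucleic acids and can trigger necroptosis through RIPK3. Ifih1 (chromosome 2, 62595618 to 62646255) carried the widest of the 46 regions, 10909 bp (62639412 to 62650320), which reached 4.07 kb before the transcript start and 6.84 kb after it. Its 3 intervals measured 5704, 2003 and 3202 bp, and the transcript start lay in the middle one. The other 2 regions counted for Ifih1 overlapped Gca, the neighbouring gene, and were 1439 and 1695 bp wide. Zbp1 (chromosome 2, 173206612 to 173218959) had 1 region, a single interval of 3343 bp over its higher-coordinate end, where it extended 1.43 kb beyond the gene. The next region midpoint lay 144 kb away. Zbp1 had the fewest regions of the 9 genes, and 70.6% of genes had at least as many.

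Rsad2 and Cmpk2 are neighbours on chromosome 12 transcribed away from each other, with 12.7 kb between them. Viperin, the Rsad2 product, makes a chain-terminating ribonucleotide that blocks viral polymerases, and CMPK2 is a mitochondrial nucleotide kinase that supplies its substrate. The pair shared all of its 6 regions, so their counts are not independent. Rsad2 (26442743 to 26456452) was overlapped by a single interval of 8894 bp that covered 59.4% of the gene from 0.752 kb before its start, and only 0.377% of single-interval regions were as wide or wider. Cmpk2 (26469117 to 26479837) had a region of 5708 bp over its start, with intervals of 416, 944 and 4348 bp, the widest of them on the downstream side in the gene body. Between the genes lay 3 further single-interval regions of 3367, 3585 and 320 bp. Together the 6 regions covered 23.3 kb, a coverage reached by 6.69% of genes.

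Isg15 and Usp18 encode a modifier and the enzyme that removes it. ISG15 is a ubiquitin-like protein joined to other proteins during the interferon response. USP18 cleaves it off and also binds IFNAR2, where it dampens receptor signalling. Isg15 (chromosome 4, 156199424 to 156200818) lay entirely inside a region of 6614 bp (156197753 to 156204366) with intervals of 2812, 1014 and 2788 bp. The start lay in the middle interval, and the region reached 3.55 kb before it and 3.06 kb after it. This region also overlapped an end of Perm1, 2.44 kb from Isg15, and lncRNA genes, so it cannot be assigned to Isg15 alone. The other 5 regions counted for Isg15 overlapped Agrn, Perm1, Plekhn1, Klhl17 or Noc2l. Usp18 (chromosome 6, 121245906 to 121270917) was overlapped by 3 regions, one of 7817 bp at its lower-coordinate end, one of 3040 bp inside the gene and one of 2827 bp at its higher-coordinate end. A single interval of 4813 bp lay 17.5 kb away, over Tuba8.

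The receptor genes lay in a locus with many regions. IFNAR1 and IFNAR2 are the chains of the receptor for all type I interferons. Ifnar1 (chromosome 16, 91485032 to 91510523) had 14 regions, a number reached by 0.238% of genes, and Ifnar2 (chromosome 16, 91372783 to 91405589) had 10, reached by 2.44%. The genes lie 79.4 kb apart and shared 2 regions, which leaves 22 distinct ones. Between and beside them lie Il10rb and Ifngr2, which encode receptor chains for interleukin 10 and interferon gamma, with 2 and 3 overlapping regions, some of them counted for Ifnar2 or Ifnar1. Only 1 of the 14 regions overlapped Ifnar1 itself, a region of 3064 bp over the start, and 6.03% of the gene was covered. Ifnar2 was overlapped by 4 regions, the widest of 4501 bp over the start. The high count at Ifnar1 is thus a count of the locus, not of the gene body.

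The make-up of the regions differed among the 9 genes. In a region of 3 intervals, the middle one took a median of 78.5% of the width over all 13627 such regions (quartiles 64.8 and 87.9%). The middle interval took 15.3% at Isg15, 16.5% at Cmpk2, 18.4% at Ifih1, and 34.6 and 45.5% in the 2 regions at Usp18. Shares as low or lower were found in 0.294, 0.411, 0.55, 3.91 and 8.38% of 3-interval regions. At Ifnar1 the middle interval took 86.0%, and at Ifnar2 it took 27.4% at the start and 66.4 and 87.7% in the other 2 regions of 3 intervals over the gene. The region over the Ifnar2 start, with intervals of 42, 1234 and 3225 bp, thus resembled that of Cmpk2 in its long downstream interval.

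Over all 3-interval regions, 11.0% had a middle interval below 50% of the width, a limit set after these shares had been seen. Among the regions counted for Ifnb1 and the 6 antiviral genes, 7 of 10 were below it, including all 5 that overlapped one of these genes. Among those counted for the receptor genes, 1 of 13 was below it. The medians were 40.3 and 81.1%. The values nearest to the limit were 48.0%, beside Ifnb1, and 53.4%, over Gca. Wide regions had smaller middle intervals in general: among the 1370 regions of 3 intervals and at least 5 kb, the median was 71.6%, and 29.1% were below the limit. Of these wide regions, 3.94% had a share as low as the 18.4% at Ifih1 or lower, and Isg15 and Cmpk2 were lower still. The transcript start lay in the middle interval at all 5 genes with a 3-interval region over it (Cmpk2, Isg15, Ifih1, Ifnar1 and Ifnar2). This was also the case for 95.7% of starts in such regions genome-wide and is not particular to these genes.

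Single intervals overlapped Ifnb1, Rsad2, Zbp1 and, beside its 3-interval regions, Usp18. They covered the whole of Ifnb1, 59.4% of Rsad2 and 15.5% of Zbp1. The median over all single intervals was 1346 bp, and 9.27% reached 3 kb, a limit also set after the widths had been seen. Those over Usp18, Zbp1, Ifnb1 and Rsad2 measured 3040, 3343, 4089 and 8894 bp. The only one over a receptor gene, inside Ifnar2, measured 1634 bp. Single intervals over a transcript start had a median of 1468 bp over all genes. By gene, 4 of the 9 were overlapped by a single interval of at least 3 kb, against 2.09% of protein-coding genes, 12.1% of 58 other interferon pathway genes and 10.0% of 10 macrophage marker genes. With a limit of 4 kb the number was 2, Ifnb1 and Rsad2, since the intervals at Usp18 and Zbp1 lie just above 3 kb. The shares of the other gene sets were computed at 3 kb only. Of the 7 pathway genes behind the 12.1%, only Adar (3.27 kb) falls below 4 kb, so the contrast with that list is smaller there.

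The 9 genes were set beside a list of other genes of interferon induction, receptor signalling and response, of which 58 of 60 were matched. All 58 had a region near them, 56 of 58 were overlapped by one, and 43 of 46 with a known start had it inside a region, with a median of 5 regions per gene. Those values lie close to the values of the 9 genes. The genes of the list with the most regions were Stat2 and Il10rb with 11 each, and Trim25 and Adar with 10 each, and none of the 58 was without a region. Il10rb lies beside Ifnar2, and the regions overlapping Il10rb were also counted for Ifnar2. Some of those over Ifngr2 were counted for Ifnar1, so the list is not fully separate from the 9 genes. The genes closest to the 9 in covered length within the window were Jak1 (9.85 kb) for Ifnb1, Stat2 (23.8 kb) for Rsad2 and Cmpk2, Tlr4 (17.7 kb) for Isg15, Tlr7 (18.4 kb) for Usp18, Uba7 (14.1 kb) for Ifih1, Tlr3 (3.33 kb) for Zbp1, Trim25 (32.9 kb) for Ifnar1 and Bst2 (24.2 kb) for Ifnar2.

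Small middle intervals were also found over other antiviral genes of that list. Of the 56 regions of 3 intervals over its genes, 18 (32.1%) had a middle interval under 50% of the width, against 6 of 9 over the 9 genes and 10.3% of those over all protein-coding genes. The lowest shares were 19.4% at Ikbke, which encodes a kinase that activates IRF3, 21.1% at Ifit2 and 22.4% at Ifi44, both interferon-induced, and 24.9% at the chemokine gene Cxcl10. Over the 10 macrophage marker genes, 1 of 15 was below the limit, and the median was 80.6%. Single intervals of at least 3 kb lay over 7 of the 58 genes (12.1%) and over 1 of the 10 macrophage marker genes, Csf1r, which encodes the receptor for macrophage colony-stimulating factor. The 7 were Ifit1 (5.34 kb), Ifit2 (6.36 kb), Oasl2 (4.24 kb), Gbp2 (4.13 kb), Ddx58 (5.58 kb), Tlr7 (6.08 kb) and Adar (3.27 kb). Ddx58 encodes RIG-I, the RNA sensor related to MDA5. The genes named in this paragraph were chosen after their values had been seen.

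Regions separated by gaps of no more than about 12 kb, the customary distance for super-enhancers, were grouped into 13554 clusters. The largest 5% by covered length were 677 clusters of at least 14.4 kb. Of the 9 genes, 4 were overlapped, wholly or in part, by such a cluster, against 5.46% of protein-coding genes. Such clusters also overlapped 5 of the 10 macrophage marker genes and 14 of the 58 interferon pathway genes. Rsad2 and Cmpk2 shared the cluster of rank 246, with 6 regions covering 23.3 kb, which held all of Rsad2 and ended inside Cmpk2. Isg15 lay in that of rank 470 (17.6 kb). The cluster of rank 639 (14.9 kb, 91451563 to 91486568) overlapped only the start of Ifnar1 and lay mostly upstream of the gene. Ifnar2, at rank 707 (14.1 kb), was just outside. Ifih1 was at rank 1081 and Usp18 at 1094, each with 10.9 kb. The regions over Ifnar2 and those over Usp18 were not all in a single cluster, and the rank given is that of the largest. Ifnb1 was at rank 2014 with 7.22 kb, and Zbp1 at 5003 with 3.34 kb. Among the 9 genes, Ifnb1 was thus in a smaller cluster than every gene but Zbp1, by this measure of covered length. Rsad2 and Cmpk2 share their cluster, and that of Isg15 takes in other genes.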

How the data were processed

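MED1 ChIP-seq libraries came from untreated and LPS-treated RAW 264.7 cells. Fixation was with DSG followed by formaldehyde, per the labels' protocols. Per the submitters' processing notes, Bowtie, SAMtools, MACS2 2.2.6 and mm10 were used. Peak calling settings, any control and any pooling are not stated in the sources used here. As deposited by the authors, the file has 53764 intervals as positions; the deposited score is 0 in every line and no measurement. The list names no library (0 columns of other samples), so the planned comparison of conditions was not made, and no depth or precision per library could be given.

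Abutting intervals were joined; 4 mitochondrial intervals were left out. A region was counted for a gene if it overlapped it or had its midpoint within 50 kb of either end. Gene positions, promoter sequences and strands came from RefSeq (GRCm38.p6; starts known for 17492 of 21887 protein-coding genes). Coordinates are 1-based. No statistical test was run. Joining and counting were tested on simulated data. The genes, lists and thresholds were chosen with earlier results of these data known. Named genes were the 9 genes, their neighbours, the 4 genes of the pathway list with the most regions, any without one and the closest in covered length; others with small middle or wide single intervals were named after their values had been seen. Alternatives changed windows, joining, region filters, stitching and motif search. Python 3.11.15, numpy 2.4.6, pandas 2.3.3 and matplotlib 3.10.9 were used.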

Additional observations from a re-analysis of the deposited data

How the results depend on the processing

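All 9 genes kept a region within 50 kb and over the gene under every window, joining and width filter tried; without single-interval regions these numbers were 8 and 6. The 46 distinct regions became 26 with a window of 10 kb, 30 at or above the median width, 93 as unjoined intervals and 23 without single-interval regions. The median of 6 regions per gene became 3 with a window of 10 kb and 2 without single-interval regions. Genes with a midpoint within 1 kb of an end numbered 6, and 8 with a limit of 2.5 kb or unjoined intervals. They numbered 9 with any overlap in place of the midpoint and 4 without single-interval regions. Of 63 counts per gene under an alternative, 40 stayed within 1.5 times, 15 were lower and 8 higher. Thresholds of 40 and 60% on the middle interval, chosen after seeing the data, gave 5 and 8 regions in place of 7. Single intervals over the genes numbered 2 with a threshold of 4 kb in place of 4 with 3 kb. The causes were not tested beyond what these settings remove. No paired analysis was possible because the list gives no values per library, and for the same reason no replicate could be left out. Whether a region was called in untreated cells, LPS-treated cells or both cannot be told from the list, and background calls could not be told apart from occupancy.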
